A study of Mus musculus with 21 samples.

Results

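The comparison described here is that of FVF+ with FVF- cells of the mouse embryonic pancreas at the embryonic stage E12.5. FVF is a fusion of the forkhead transcription factor Foxa2 with the fluorescent protein Venus, and cells dissociated from the pancreas were sorted by that fluorescence. The comparison used the 3 FVF+ and the 2 FVF- arrays labelled E12.5, which are 5 of the 21 arrays in the series, and all 19296 genes with a usable probe set. The other 16 arrays are the same sorts at E13.5, E14.5 and E15.5. All groups came from a mixed strain background (C57-Bl6/SV129/CD1), and the labels give no treatment and no further allele. The labels do not give how many copies of the FVF allele the embryos carried, and FVF- is the remainder of the dissected organ and not a cell type. Whether the biological replicates named in the labels are separate embryos, litters or sorts is not stated. The p-values therefore describe the spread between arrays within groups, which may be partly technical. That spread was estimated from all 21 arrays in 8 groups together, not from the 5 E12.5 arrays alone. Precision is limited by how few arrays each group holds.

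At this stage the pancreas is a branching bud of endodermal epithelium embedded in mesenchyme, with vessels, blood cells, mesothelium and nerve precursors. The epithelial tip cells are multipotent and later give rise to acinar, ductal and islet cells, while mesenchyme supplies growth factors to them. Foxa2 marks the endoderm from before pancreas formation and remains present in its descendants, so a Foxa2 reporter separates the epithelium from cells of other germ layers.

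Expression is given as log2 RMA signal, a background-corrected and normalized probe intensity on a log2 scale, on which a difference of 1 is a doubling. The E12.5 values ran from 4.09 to 15.30, with array medians from 8.68 to 8.73. Values of single arrays are listed throughout in the order FVF- replicates 1 and 2, then FVF+ replicates 1, 2 and 3. Differences are FVF+ minus FVF- (n = 3 and 2 arrays) with the moderated standard error (SE) from limma. The SE rests on a spread shared by all 21 arrays. A gene is called when its Benjamini-Hochberg adjusted p over all genes is under 0.05. In sorted bulk RNA a lower signal from fewer cells of a type and one from less RNA per cell cannot be told apart.

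Foxa2 itself, the gene behind the sort, measured 8.11 and 8.26 in FVF- and 11.30, 11.12 and 11.16 in FVF+. Every FVF+ array lay above both FVF- arrays, and the difference was 3.01 ± 0.20 (limma adjusted p = 1.92e-09), an 8.05-fold difference. Its relative Foxa1 differed by 0.20 ± 0.11 (limma adjusted p = 0.176) and was not called. Foxa1 measured 7.57 and 7.77 in FVF- and 8.04, 7.84 and 7.74 in FVF+, below the array medians of 8.68 to 8.73 in both sorts. Whether its probe set reads the gene well was not tested.

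One FVF+ array stood apart. Replicate 1 correlated with the FVF- arrays at 0.936 and 0.934 over genes, whereas replicates 2 and 3 did so at 0.916 to 0.920. The embryonic globin Hbb-y measured 13.81 and 13.86 in FVF- and 11.18, 7.79 and 7.54 in FVF+. The mean of the 22 measured macrophage and leukocyte genes was 9.29 and 9.30 in FVF-, and 7.93, 7.39 and 7.17 in FVF+. Replicate 1 was the highest FVF+ array in the mean of each of the 9 lists of mesenchymal, mesothelial, vascular, blood and neural cells. The part that cells or RNA of the other sort played in it was not tested. Counts are therefore given with and without replicate 1 where they moved.

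**Figure D1:**
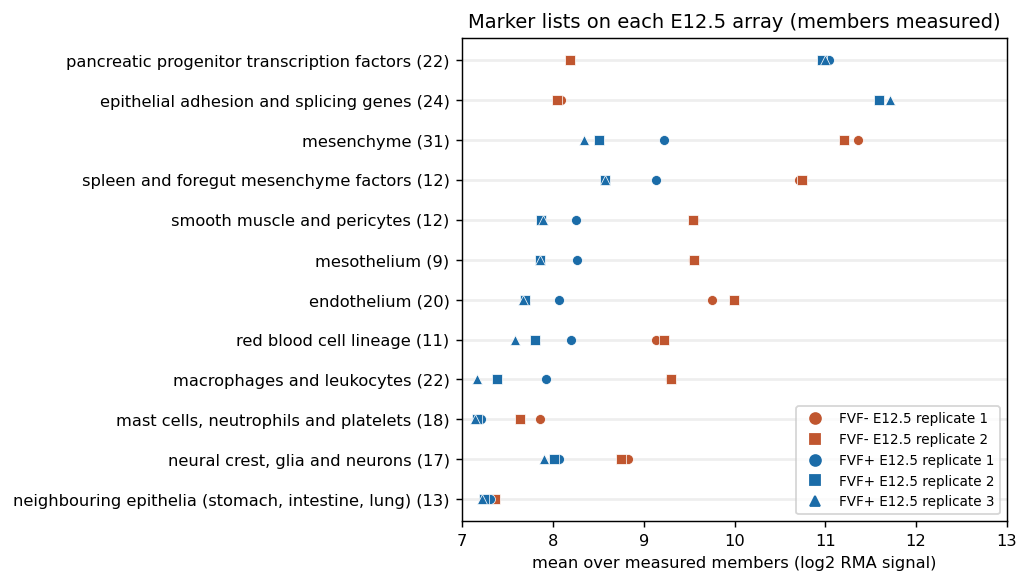
Mean log2 RMA signal of the measured members of selected marker lists (x axis) on each of the 5 E12.5 arrays. Colours give the sort and shapes the replicate, and the number of measured members is in brackets. The endocrine, hormone, acinar, ductal and liver-type lists are not drawn. For mesenchyme, FVF+ replicate 1 (blue circle) is the FVF+ array nearest to FVF-, at 9.23 against 8.51 and 8.34 on the other FVF+ arrays.

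Over all genes, 6924 were called, which is 35.9% of those tested, with 3321 higher in FVF+ (17.2%) and 3603 lower (18.7%). A difference of at least 1 log2 unit was called for 1128 genes higher (5.85%) and 1110 lower (5.75%). Without FVF+ replicate 1 these counts were 1152 higher and 1152 lower. The median difference over all genes was -0.04. With only the E12.5 arrays fitted, 8080 genes were called. Without FVF+ replicate 1, 6503 genes were called, and 6204 of them were among the 6924.

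The largest rises joined genes best known from liver with exocrine and epithelial genes. Serpina1c, one of the alpha-1-antitrypsin genes, measured 5.57 and 5.65 in FVF- and 13.28, 12.53 and 12.76 in FVF+. The sorts were far apart, by 7.25 ± 0.56 log2 units (limma adjusted p = 9.52e-09), or 152-fold. Serpina1 genes are close copies of each other, so the probe set may read several, and Serpina1d, named after its values were seen, was higher by 2.71 ± 0.32. Serpina6, corticosteroid-binding globulin, measured 8.19 and 6.73 in FVF- against 13.88, 14.02 and 14.17 in FVF+ (6.56 ± 0.48, limma adjusted p = 5.6e-09). Its FVF- arrays lay further from each other than the FVF+ arrays did. Pnliprp1, a pancreatic lipase-related protein, measured 6.54 and 6.22 against 12.70, 12.95 and 12.82 (6.44 ± 0.48, limma adjusted p = 6.16e-09), an 87-fold difference. Naaladl2 had the second largest rise (6.81 ± 0.99), and below Pnliprp1 came the glucuronosyltransferase Ugt2b34 (5.91 ± 0.44), the alpha-1-microglobulin and bikunin precursor Ambp (5.80 ± 0.57), vitronectin Vtn (5.58 ± 0.24), carboxypeptidase N subunit Cpn1 (5.44 ± 0.49) and the aldo-keto reductase Akr1c19 (5.43 ± 0.34). They were followed by claudin Cldn6 (5.36 ± 0.41), E-cadherin Cdh1 (5.34 ± 0.38), the serine protease Habp2 (5.33 ± 0.34), the splicing regulator Esrp1 (5.31 ± 0.38), the cholecystokinin receptor Cckar (5.25 ± 0.41) and the chymotrypsinogen Ctrb1 (5.24 ± 0.44). In all 15 the FVF+ arrays lay above both FVF- arrays, which was part of the rule that named them, and arrays did not overlap for 63.2% of all genes.

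**Figure D2:**
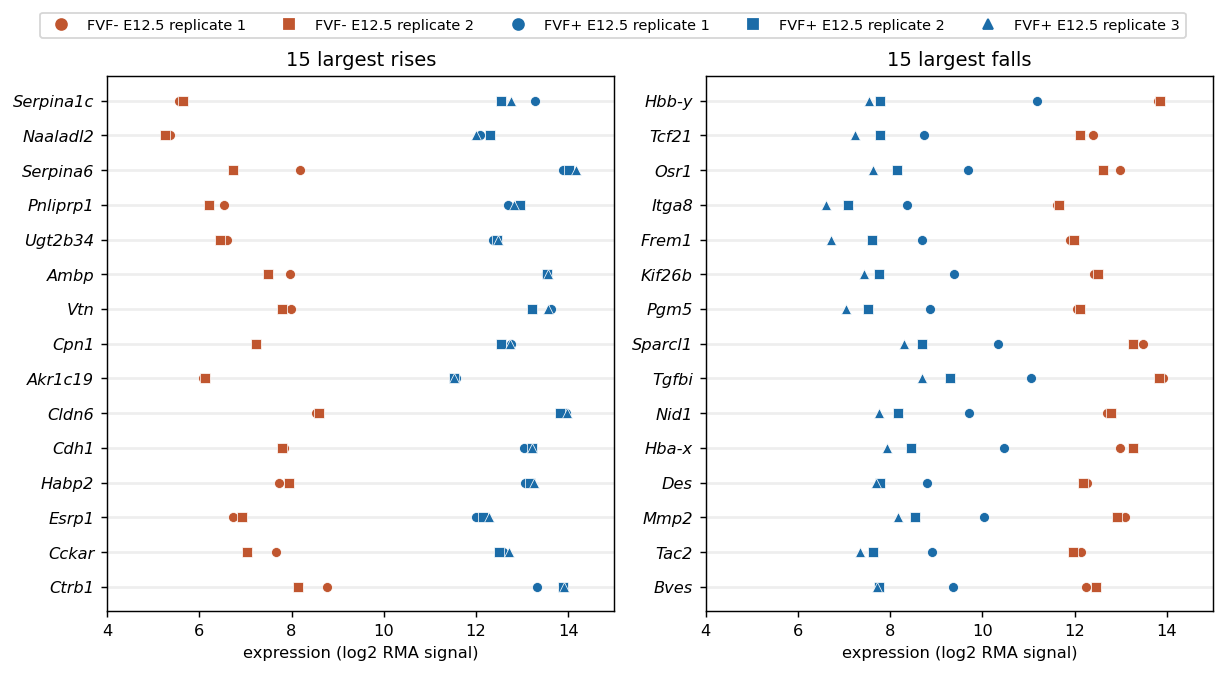
Log2 RMA signal (x axis) of the 15 genes with the largest rise (left) and the 15 with the largest fall (right) on each E12.5 array; colours give the sort and shapes the replicate. In the right panel FVF+ replicate 1 lies above the other FVF+ arrays for every gene, as for Hbb-y at 11.18 against 7.79 and 7.54.

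These leading genes include liver-type and acinar genes, and 10 of the 15 matched RefSeq promoter windows (build GRCm38.p6), each from 250 bases before to 50 after a transcription start. Of those 10 genes, 6 held the letters GTTAAT on either strand, the core of sites bound by the HNF1 homeodomain factors. Among all tested genes with a window, 7.05% of 15160 held them, and among all 32851 windows 7.1%. The bases before the start are shown for 2 liver-type and 2 acinar genes among those 6, 5′ to 3′ on the gene's strand, with GTTAAT or its complement ATTAAC in capitals. Serpina1c lies at chr12:103904951-103905200 on the minus strand, Cpn1 at chr19:43986521-43986770 on the minus strand, Pnliprp1 at chr19:58728637-58728886 on the plus strand and Ctrb1 at chr8:111691011-111691260 on the minus strand.
Serpina1c: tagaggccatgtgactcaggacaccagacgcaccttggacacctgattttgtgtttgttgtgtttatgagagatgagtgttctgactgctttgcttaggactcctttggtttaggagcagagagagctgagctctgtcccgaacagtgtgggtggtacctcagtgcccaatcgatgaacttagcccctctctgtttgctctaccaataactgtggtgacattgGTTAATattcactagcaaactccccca
Cpn1: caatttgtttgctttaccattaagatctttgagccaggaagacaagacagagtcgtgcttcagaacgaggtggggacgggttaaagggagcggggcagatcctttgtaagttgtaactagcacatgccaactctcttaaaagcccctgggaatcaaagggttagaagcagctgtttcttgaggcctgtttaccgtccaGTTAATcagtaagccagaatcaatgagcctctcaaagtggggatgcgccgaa
Pnliprp1: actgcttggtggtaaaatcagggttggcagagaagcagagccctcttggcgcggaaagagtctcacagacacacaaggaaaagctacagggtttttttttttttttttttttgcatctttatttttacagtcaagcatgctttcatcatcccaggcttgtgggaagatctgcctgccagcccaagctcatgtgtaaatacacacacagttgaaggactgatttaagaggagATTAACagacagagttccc
Ctrb1: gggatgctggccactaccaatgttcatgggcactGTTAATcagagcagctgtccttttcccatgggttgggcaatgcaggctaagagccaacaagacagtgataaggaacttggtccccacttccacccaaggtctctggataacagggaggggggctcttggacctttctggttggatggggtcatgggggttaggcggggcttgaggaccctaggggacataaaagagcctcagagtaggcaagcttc
Counted from the start, the letters lie at bases -27 to -22 in Serpina1c, -52 to -47 in Cpn1, -19 to -14 in Pnliprp1 and -216 to -211 in Ctrb1. The other matches among the 15 were in Vtn and Habp2. Among all genes called at least 1 log2 unit higher in FVF+ with a window, 68 of 881 (7.72%) held the letters, against 39 of 791 (4.93%) of those at least 1 log2 unit lower and 1 of 11 among the 15 largest falls. Of the 4 other motifs searched on both strands, the longer HNF1 palindrome was in 0 of the 10 genes, the forkhead core TGTTTAC in 1, the E-box CAGCTG in 2 and the HNF4 site CAAAGTCCA in 0, against 0.033%, 3.49%, 18.2% and 0.547% of tested genes with a window. A match to the palindrome also counts as GTTAAT. These are matches of letters chosen with the expression results in view, and no binding was measured.

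Pancreatic progenitor transcription factors were almost all higher in FVF+. Of 22 measured, 21 were called higher and 0 lower, with a median difference of 2.87, and the count was the same without FVF+ replicate 1. The 21 include Foxa2, whose fusion protein defined the sort. Pdx1, without which no pancreas forms, measured 7.18 and 7.34 in FVF- and 12.22, 12.10 and 12.14 in FVF+ (4.89 ± 0.29, limma adjusted p = 6.11e-10). The groups were far apart, a 29.7-fold difference. Onecut1, the hepatocyte nuclear factor 6 gene that acts upstream of Pdx1 and of endocrine commitment, differed by 5.13 ± 0.60, and Prox1, a homeobox factor of liver and pancreas buds, by 5.04 ± 0.41. Nkx2-2 and Nkx6-1, homeobox factors of the endocrine and beta-cell programme, differed by 4.98 ± 0.40 and 4.06 ± 0.29, and the nuclear receptor Nr5a2 by 4.97 ± 0.56. Ptf1a and Sox9, named after their values were seen because tip and trunk progenitors are defined by them, were higher by 3.04 ± 0.32 and 3.96 ± 0.27. Sox9 reached 13.23, 13.32 and 13.45 in FVF+ against 9.43 and 9.32 in FVF-. Of the zinc finger factors, Gata6, also named after its values were seen, was higher by 1.19 ± 0.10, with FVF- arrays already at 11.47 and 11.30.

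Epithelial adhesion and splicing genes were higher in FVF+ with 1 exception. Of 24 measured, 23 were higher, all by at least 1 log2 unit, and the median difference was 3.62. E-cadherin Cdh1, the adherens junction cadherin, measured 7.84 and 7.80 in FVF- and 13.04, 13.21 and 13.22 in FVF+. Its FVF+ arrays, replicate 1 included, lay close together and far above FVF-. Epcam, a surface adhesion molecule of epithelia, differed by 5.10 ± 0.37, Spint1, an inhibitor of epithelial surface proteases, by 4.49 ± 0.30, and the small GTPase Rab25 of apical recycling by 4.41 ± 0.24. The galectin Lgals4, a gut epithelial lectin, was not called (-0.07 ± 0.14). Of 13 markers of stomach, intestine and lung, 1 was higher and 5 lower, with a median of -0.17. The higher one was Vil1, the brush border protein villin (0.82 ± 0.18), and the stomach and oesophagus factor Sox2 was lower (-0.61 ± 0.11), with 6.24, 6.09 and 6.21 in FVF+. The other 4 lower genes differed less than Sox2, and each lost its call when one or another single array was left out. The mean of the 13 markers was low in both sorts, at 7.29 and 7.36 in FVF- and 7.30, 7.24 and 7.22 in FVF+. The array medians ran from 8.68 to 8.73.

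Endocrine lineage factors were mostly higher in FVF+. Of 19 measured endocrine lineage factors, 14 were higher, 1 lower and 4 not called, with a median of 1.31. Neurog3, the transcription factor that starts the endocrine programme, measured 7.79 and 7.10 in FVF- and 12.06, 12.91 and 12.41 in FVF+ (5.01 ± 0.39, limma adjusted p = 1.2e-08). The groups did not overlap, and the difference was 32.3-fold. Its downstream genes followed, with Neurod1 at 4.68 ± 0.29 and the winged-helix factor Rfx6 at 4.55 ± 0.37. The islet factors Pax6 (3.18 ± 0.36), Pax4 (3.17 ± 0.37) and Pou3f4 (2.95 ± 0.34) were higher as well. Pou3f4, a POU factor linked to alpha cells, read 11.29, 10.74 and 10.13 on the FVF+ arrays, all above the FVF- arrays at 7.62 and 7.92. Runx1t1, a corepressor, was lower, at -1.73 ± 0.19 log2 units. The LIM homeobox factor Isl1, which endocrine cells and pancreatic mesenchyme both need, was at 10.64 and 10.53 in FVF- and 10.70, 10.32 and 9.72 in FVF+. These arrays overlapped, and the difference of -0.34 ± 0.25 was not called (limma adjusted p = 0.31).

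Of 9 measured islet hormone genes, 8 were higher in FVF+, 7 of them without FVF+ replicate 1, with a median of 1.98. Glucagon, Gcg, measured 11.65 and 11.57 in FVF- and 14.40, 14.23 and 13.95 in FVF+, and the difference was 2.58 ± 0.63 (limma adjusted p = 0.00355). Peptide YY, Pyy, measured 8.94 and 9.18 against 13.12, 12.64 and 12.09 (3.56 ± 0.29), and amylin, Iapp, 7.17 and 7.09 against 10.22, 11.01 and 10.60 (3.48 ± 0.39). For both, every FVF+ array was higher than every FVF- array by over 2 log2 units. Gastrin, Gast, differed by 2.24 ± 0.30, pancreatic polypeptide, Ppy, by 1.98 ± 0.28, ghrelin, Ghrl, by 1.50 ± 0.25 and cholecystokinin, Cck, by 1.33 ± 0.28. The insulin gene Ins2 was the weakest of those called, at 8.45 and 8.36 in FVF- and 9.46, 9.12 and 9.10 in FVF+ (0.82 ± 0.26, limma adjusted p = 0.019). It lost its call without FVF+ replicate 1 (limma adjusted p = 0.0656), FVF- replicate 1 (0.0683) or FVF- replicate 2 (0.114). Somatostatin, Sst, did not separate the sorts, at 8.57 and 8.71 in FVF- and 8.57, 8.85 and 8.47 in FVF+ (-0.01 ± 0.27, limma adjusted p = 0.984).

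Secretory granule and glucose sensing genes were mostly higher in FVF+. Of 25 measured, 17 were higher, 1 lower and 7 not called, with a median of 1.10. The glucose transporter gene Slc2a2, which early pancreatic progenitors also express, measured 7.40 and 7.17 in FVF- and 11.79, 11.64 and 11.64 in FVF+ (4.41 ± 0.25, limma adjusted p = 4.21e-10). It differed more than any granule gene in the list, ahead of the chromogranins Chgb (3.77 ± 0.39) and Chga (2.77 ± 0.29), the potassium channel subunit Abcc8 (3.35 ± 0.34), the granin Scg3 (2.92 ± 0.26) and the prohormone convertase Pcsk1 (2.41 ± 0.22). The granins Scg2 and Scg5 and the granule peptide precursor Vgf were not called, at 0.55 ± 0.27, 0.26 ± 0.18 and -0.17 ± 0.15. The vesicular monoamine transporter Slc18a2 was lower, at -1.23 ± 0.14 log2 units.

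Acinar and tip genes were either clearly higher in FVF+ or not called. Of 27 measured, 14 were higher, all by at least 1 log2 unit, and 13 were not called, with a median of 1.10 (15 higher without FVF+ replicate 1, which added the chymotrypsin C gene Ctrc). The colipase gene Clps, an early acinar product, measured 9.58 and 8.92 in FVF- and 14.49, 14.31 and 14.41 in FVF+ (5.15 ± 0.31, limma adjusted p = 6.52e-10). With Pnliprp1 and Ctrb1 above, it stood clear of the carboxyl ester lipase Cel (3.70 ± 0.38), the serpin Serpini2 (3.68 ± 0.50) and the lithostathine Reg1 (3.60 ± 0.21). Carboxypeptidase A1, Cpa1, the marker of multipotent tip cells, was named after its values were seen and measured 12.01 and 11.75 in FVF- against 14.68, 14.76 and 14.80 in FVF+ (2.87 ± 0.26). The acinar regulators Rbpjl and Bhlha15, named likewise, were higher by 3.27 ± 0.58 and 2.29 ± 0.30. Among members not called were Ctrc (0.63 ± 0.31), the trypsinogen Prss2 (0.38 ± 0.21) and the amylase Amy1 (0.30 ± 0.20), and the trypsinogen and amylase genes have close copies whose signal may be shared.

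Liver-type secreted genes included the largest single difference. Of 30 measured, 18 were higher, 17 of them by at least 1 log2 unit, 1 was lower and 11 were not called, with a median of 1.71. Besides the genes named above, transthyretin Ttr, alpha-fetoprotein Afp and albumin Alb, named after their values were seen as defining products of fetal liver, were higher by 3.69 ± 0.48, 3.36 ± 0.23 and 2.12 ± 0.46. Albumin measured 6.83 and 6.93 in FVF- and 9.01, 8.63 and 9.35 in FVF+. The apolipoprotein gene Apoa1, another abundant liver product, was not called (0.46 ± 0.18, limma adjusted p = 0.0519), nor were the fetuin gene Ahsg (-0.32 ± 0.16) and Apoe (-0.29 ± 0.21), which macrophages and mesenchyme also express. Apoa4 was lower, at -0.34 ± 0.13 log2 units (limma adjusted p = 0.0491), and without FVF+ replicate 1, FVF+ replicate 3 or either FVF- array it was not called, with 0.169, 0.11, 0.154 and 0.172 as its adjusted p. Whether liver cells were present in the sort was not tested.

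Of 15 measured ductal genes, 11 were higher (10 without FVF+ replicate 1), 3 lower and 1 not called, with a median of 1.23. Muc1, an apical mucin of tubular epithelia, measured 7.22 and 7.21 in FVF- and 11.77, 12.08 and 12.21 in FVF+ (4.80 ± 0.43, limma adjusted p = 5.24e-08). Muc1 was separated by over 4 log2 units on every array pair. The cilium-associated Pkhd1, the gene of autosomal recessive polycystic kidney disease, differed by 3.31 ± 0.40, clusterin Clu by 2.79 ± 0.22 and the bicarbonate transporter Slc4a4 by 1.66 ± 0.22. Of the 3 genes on the FVF- side, the annexin Anxa3 was lower, at -2.11 ± 0.24 log2 units, carbonic anhydrase Car2 at -1.60 ± 0.24 and the secretin receptor Sctr at -0.91 ± 0.11.

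**Figure D3:**
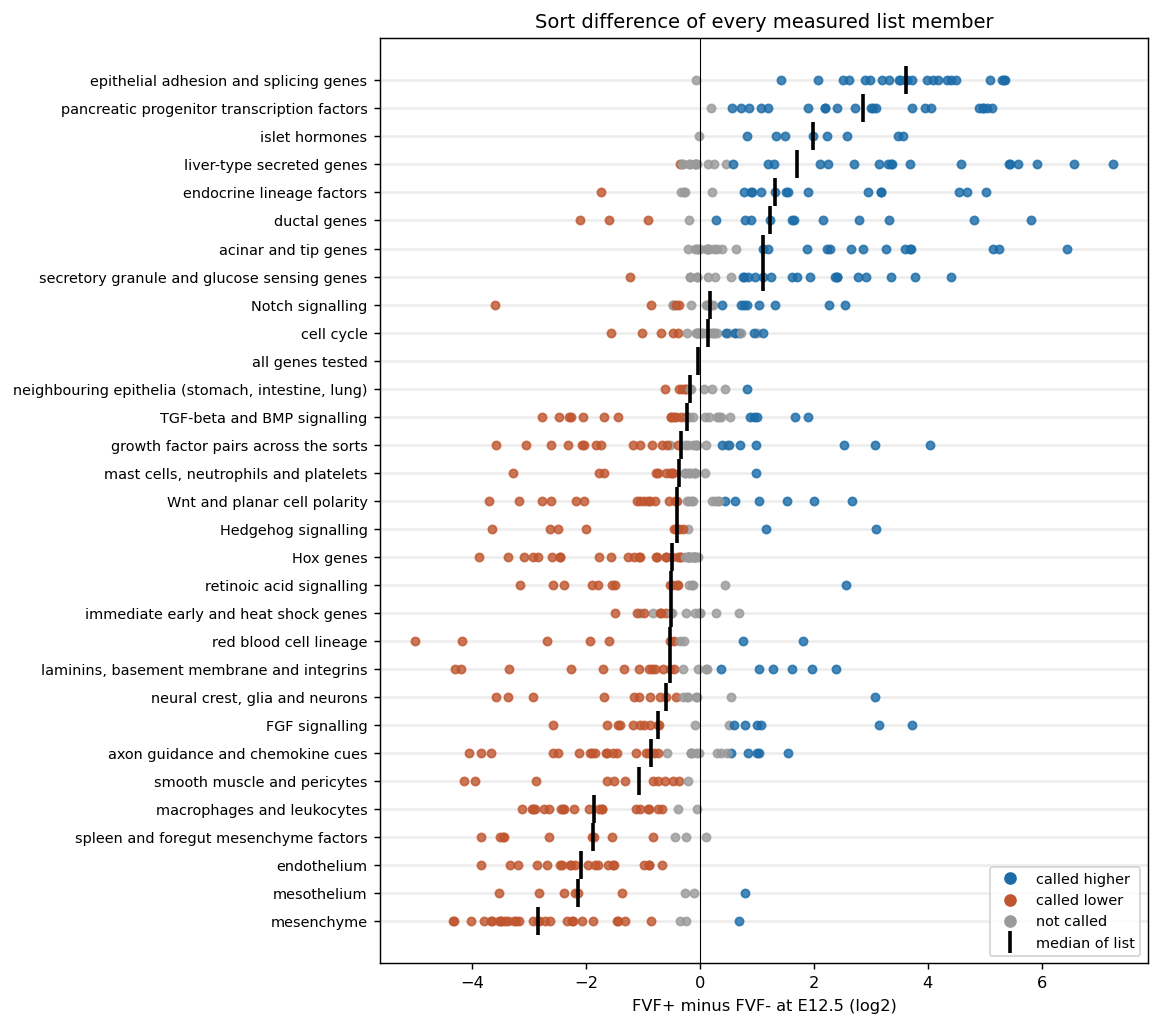
Sort difference (x axis, log2, FVF+ minus FVF-) of every measured member of each gene list except the X-inactivation and Y-linked genes. Called members are in colour, members not called in grey, and the list median is a black bar. The row for all genes tested shows the median only. List medians run from 3.62 for epithelial adhesion and splicing genes to -2.84 for mesenchyme, with -0.04 over all genes.

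On the FVF- side, mesenchyme genes led. Of 31 measured, 28 were lower in FVF+, 1 higher and 2 not called, with a median of -2.84 (29 lower and a median of -3.27 without FVF+ replicate 1). Tcf21, a basic helix-loop-helix factor of visceral mesenchyme, measured 12.39 and 12.11 in FVF- and 8.74, 7.79 and 7.23 in FVF+ (-4.33 ± 0.27, limma adjusted p = 9.36e-10). FVF+ replicate 1 was the highest of its group, and the difference was -4.74 without it. The zinc finger factor Osr1 behaved alike at -4.31 ± 0.45, as did the platelet-derived growth factor receptor Pdgfra (-4.02 ± 0.37), the collagen receptor Ddr2 (-3.79 ± 0.31), the homeobox factor Prrx1 (-3.67 ± 0.33) and the E-cadherin repressor Zeb2 (-3.65 ± 0.38). Fibronectin, Fn1, was the exception, at 11.66 and 11.94 in FVF- and 12.40, 12.54 and 12.52 in FVF+ (0.69 ± 0.16, limma adjusted p = 0.00193). All FVF+ arrays were above both FVF- arrays for this matrix gene. Vimentin, Vim, a usual mesenchymal filament marker, measured 14.22 and 14.23 against 14.07, 13.84 and 14.06, and was not called (-0.23 ± 0.09). Without FVF+ replicate 1 it was called at -0.28 (limma adjusted p = 0.0469).

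The other largest falls were mostly matrix and muscle genes. The nephronectin receptor subunit Itga8 (-4.29 ± 0.37), the matrix protein Frem1 (-4.28 ± 0.36), the kinesin Kif26b (-4.27 ± 0.38), Pgm5 (-4.27 ± 0.34), the SPARC-like Sparcl1 (-4.26 ± 0.38), Tgfbi (-4.19 ± 0.42), nidogen Nid1 (-4.18 ± 0.40), the gelatinase Mmp2 (-4.09 ± 0.37), the tachykinin Tac2 (-4.09 ± 0.33) and Bves (-4.07 ± 0.42) were all lower by over 4 log2 units. FVF+ replicate 1 was the highest FVF+ array for each of them.

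Transcription factors of spleen and foregut mesenchyme were mostly lower in FVF+. Of 12 measured, 9 were lower in FVF+ and 0 higher, with a median of -1.88. Barx1, a factor of stomach mesenchyme, measured 12.56 and 12.32 in FVF- against 9.43, 8.19 and 8.16 in FVF+ (-3.85 ± 0.31, limma adjusted p = 1.52e-08). Tlx1, required for the spleen that grows beside the dorsal pancreas, measured 11.22 and 11.00 against 8.31, 7.51 and 7.18 (-3.44 ± 0.28). FVF+ replicate 1 was above the other FVF+ arrays for both genes, and the sorts did not overlap. Hand2, Nr2f2, Nkx3-2 and Foxf1 were lower, at -3.51 ± 0.28, -3.46 ± 0.35, -2.65 ± 0.25 and -1.90 ± 0.17 log2 units. Pbx3 (0.11 ± 0.11) and Sox11 (-0.44 ± 0.28) were not called. Of 37 Hox genes, which carry positional identity, 22 were lower and 0 higher, led by Hoxa5 at 11.31 and 10.84 against 8.11, 6.79 and 6.71 (-3.87 ± 0.30), Hoxb2 (-3.37 ± 0.25) and Hoxb5 (-3.08 ± 0.19). The Hox median was -0.50, and the posterior members Hoxa11 (-0.21 ± 0.10) and Hoxd13 (-0.20 ± 0.10) were among the 15 not called.

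Smooth muscle, mesothelium and vessels were lower in FVF+ as well. Of 12 smooth muscle and pericyte genes 11 were lower (9 without FVF+ replicate 1), with a median of -1.06, led by desmin Des (-4.13 ± 0.32), the pericyte regulator Rgs5 (-3.94 ± 0.45) and smooth muscle actin Acta2 (-2.87 ± 0.36). The late contractile gene Myh11 was not called, at 7.76 and 7.84 against 7.61, 7.60 and 7.57. Of 9 mesothelium genes 6 were lower, 1 higher (0 without FVF+ replicate 1) and 2 not called, with Wt1, the Wilms tumour factor, at -3.53 ± 0.27 and uroplakin Upk3b at -2.82 ± 0.28, while mesothelin Msln was not called (-0.10 ± 0.10). The higher one was the keratin Krt19, which epithelia also express (0.79 ± 0.27, limma adjusted p = 0.0306), and leaving out either FVF- array, FVF+ replicate 1 or FVF+ replicate 3 ended that call (0.0985, 0.147, 0.068 and 0.0754). All 20 endothelial genes were lower, with and without FVF+ replicate 1, with a median of -2.08. Endoglin, Eng, measured 12.02 and 11.97 in FVF- against 9.08, 7.67 and 7.73 in FVF+ (-3.83 ± 0.42, limma adjusted p = 7.04e-07), and VE-cadherin Cdh5 differed by -3.19 ± 0.50. Both were lower on every FVF+ array, by at least 2 log2 units.

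In each of the 3 lists of blood cell genes, more members were lower in FVF+ than higher. Of 11 measured red cell genes, 7 were lower, 2 higher and 2 not called, with a median of -0.52. The embryonic globins led the list, with Hbb-y 32-fold lower (limma adjusted p = 3.09e-05), a log2 difference that became -6.17 without FVF+ replicate 1, and Hba-x at -4.18 ± 0.53, which became -4.93. The transferrin receptor Tfrc, which all dividing cells use to take up iron, was higher by 1.80 ± 0.23. The other higher gene was the erythrocyte membrane protein gene Epb42 (0.76 ± 0.29, limma adjusted p = 0.0489), which lost its call without FVF- replicate 1 (0.196), FVF- replicate 2 (0.131), FVF+ replicate 2 (0.217) or FVF+ replicate 3 (0.0676). Of 22 macrophage and leukocyte genes, 20 were lower and 0 higher, with a median of -1.86, which became -2.10 without FVF+ replicate 1. The complement gene C1qb measured 11.10 and 11.16 in FVF- against 9.39, 7.62 and 7.04 in FVF+ (-3.11 ± 0.44). It was lower on all FVF+ arrays, with replicate 1 nearest to FVF-. Of 18 mast cell, neutrophil and platelet genes, 9 were lower (6 without FVF+ replicate 1), 1 higher and 8 not called, with a median of -0.36. The mast cell protease Cpa3 (-3.28 ± 0.41) and myeloperoxidase Mpo (-1.76 ± 0.25) were lower. Among 17 genes of neural crest, glia and neurons, 10 were lower, 1 higher and 6 not called, with a median of -0.60. The endothelin receptor Ednrb (-3.57 ± 0.38), the glial fatty acid binding protein Fabp7 (-3.36 ± 0.40) and the neuronal Stmn2 (-2.93 ± 0.22) led them.

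For some growth factors the ligand and its receptor were called in opposite directions. Hepatocyte growth factor, Hgf, measured 9.26 and 8.89 in FVF- and 6.93, 6.32 and 6.12 in FVF+ (-2.62 ± 0.25, limma adjusted p = 1.43e-07). Its receptor Met ran the other way, at 6.78 and 6.67 in FVF- and 10.64, 10.77 and 10.90 in FVF+ (4.04 ± 0.24, limma adjusted p = 5.32e-10), a 16.5-fold difference. Both genes were separated on all arrays. Neuregulin Nrg1 (-2.03 ± 0.18) and its receptor Erbb3 (3.08 ± 0.18) were arranged in the same way, as were stem cell factor Kitl (-1.74 ± 0.31) and its receptor Kit (0.99 ± 0.11). In the opposite arrangement, the ligand Pdgfa was higher in FVF+ by 0.71 ± 0.18 and its receptor Pdgfra lower. The Pdgfa call was lost without FVF- replicate 2 (limma adjusted p = 0.0944).

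Not every pair was split in this way. The neurotrophic ligand Gdnf measured 7.66 and 8.04 in FVF- and 10.22, 10.57 and 10.37 in FVF+ (2.54 ± 0.15, limma adjusted p = 5.4e-10). It was higher on every FVF+ array, whereas its receptor Ret read 9.86 and 10.03 against 9.63, 10.11 and 9.88 (-0.07 ± 0.17) and the coreceptor Gfra1 differed by -0.21 ± 0.12. Neither receptor was called. Both Egfr (-3.06 ± 0.18) and Igf1 (-2.31 ± 0.17) were lower in FVF+. The insulin-like growth factor receptor Igf1r was higher by 0.38 ± 0.14 and lost that call without any 1 of the 5 arrays (limma adjusted p from 0.0588 to 0.312). Of the 30 measured genes of the growth factor list, 7 were higher (6 without FVF+ replicate 1), 14 lower (15 without it) and 9 not called, with a median of -0.32.

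**Figure D4:**
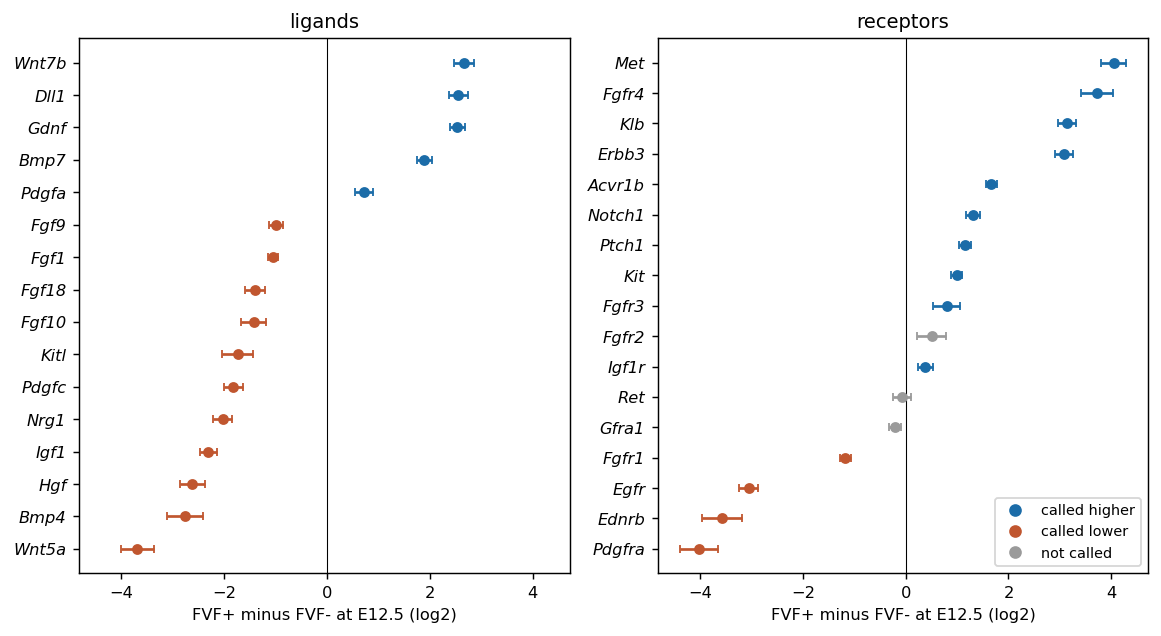
Sort difference (x axis, log2, FVF+ minus FVF-) of selected ligands (left) and receptors or coreceptors (right). Bars are the moderated SE (3 FVF+ and 2 FVF- arrays, spread estimated over all 21 arrays), and grey points were not called. Hgf lies at -2.62 and its receptor Met at 4.04.

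Most named fibroblast growth factor ligands were lower in FVF+, and receptors were divided between the sorts. Of 18 measured pathway genes, 6 were higher, 10 lower (9 without FVF+ replicate 1) and 2 not called, with a median of -0.73. Fgf10, the mesenchymal ligand that keeps epithelial progenitors dividing, measured 7.56 and 7.82 in FVF- and 6.44, 6.09 and 6.25 in FVF+ (-1.43 ± 0.24, limma adjusted p = 0.000118). Each FVF+ array lay below both FVF- arrays. The ligands Fgf18, Fgf1, Fgf9 and Fgf2 were lower, at -1.40 ± 0.20, -1.06 ± 0.10, -0.99 ± 0.13 and -0.71 ± 0.16 log2 units, and Fgf7 was not called (-0.08 ± 0.11). Among receptors, Fgfr4 was higher by 3.73 ± 0.31 together with the coreceptor Klb (3.14 ± 0.17), and Fgfr1 was lower, at -1.18 ± 0.11. Fgfr2, which binds Fgf10, was at 11.54 and 11.76 in FVF- and 12.07, 12.15 and 12.24 in FVF+. The arrays did not overlap, but the difference of 0.50 ± 0.28 was not called (limma adjusted p = 0.178). The feedback inhibitors Spry4 (-2.58 ± 0.16) and Spry1 (-1.63 ± 0.13) were lower in FVF+, and the target Etv5 was higher (1.07 ± 0.21).

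In the Hedgehog pathway, which is kept low in normal pancreatic epithelium, the ligand Shh was not called. It measured 7.80 and 7.75 in FVF- and 7.64, 7.49 and 7.57 in FVF+ (-0.21 ± 0.12). Of 12 measured genes, 9 were lower (7 without FVF+ replicate 1), 2 higher and 1 not called, with a median of -0.41. The 2 higher genes, Hhip and the receptor Ptch1, both encode proteins that bind the ligand. Hhip measured 6.88 and 6.68 in FVF- against 9.52, 10.05 and 10.04 in FVF+ (3.09 ± 0.26, limma adjusted p = 3.13e-08), and Ptch1 differed by 1.16 ± 0.12. Each FVF+ array exceeded both FVF- arrays. The coreceptor Boc (-3.65 ± 0.25) and the transducers Gli2 (-2.64 ± 0.23) and Gli3 (-2.50 ± 0.16) were lower, as was the surface protein Gas1. Gli1, Smo, Dhh, Sufu and Ihh were also called lower, but each lost its call when one or another single array was left out.

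Among Notch genes, more were higher in FVF+ than lower. Of 20 measured, 8 were higher (7 without FVF+ replicate 1), 5 lower (4 without it) and 7 not called, with a median of 0.17. The ligand Dll1, which Neurog3-positive cells present to their neighbours, measured 8.07 and 8.23 in FVF- and 10.33, 10.95 and 10.83 in FVF+ (2.55 ± 0.19, limma adjusted p = 5.23e-09). It was raised on every FVF+ array, as were the receptor Notch1 (1.31 ± 0.14) and the targets Nrarp (2.27 ± 0.20) and Hey1 (1.04 ± 0.19). Hey2, a Notch target of vessels, was lower, at -3.60 ± 0.24 log2 units.

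More Wnt, bone morphogenetic protein and retinoic acid genes were lower in FVF+ than higher. Of 29 Wnt and planar polarity genes, 15 were lower, 6 higher and 8 not called, with a median of -0.40. Wnt5a, a non-canonical ligand, measured 11.55 and 11.67 in FVF- against 8.92, 7.63 and 7.20 in FVF+ (-3.69 ± 0.32), while Wnt7b, an epithelial ligand, measured 8.15 and 7.89 against 10.51, 10.61 and 10.93 (2.66 ± 0.20). The ligands thus lay in opposite sorts, with no overlap of arrays in either. The polarity cadherins Celsr2 and Celsr1 were higher by 2.00 ± 0.17 and 1.54 ± 0.11, and the secreted inhibitor Sfrp1 and the factor Lef1 lower, at -3.18 ± 0.43 and -2.77 ± 0.16 log2 units. Of 27 TGF-beta and BMP genes, 12 were lower (11 without FVF+ replicate 1) and 5 higher, with a median of -0.22. Here too the ligands were split, with Bmp4 lower (-2.76 ± 0.35) and Bmp7 higher (1.90 ± 0.14). Of 16 retinoic acid genes, 11 were lower (10 without FVF+ replicate 1) and 1 higher, with a median of -0.51. The synthesis enzymes Rdh10 and Aldh1a2 were lower, at -3.16 ± 0.18 and -2.38 ± 0.22 log2 units, and the receptor Rarb at -2.57 ± 0.14. The 1 higher gene was the receptor Rxrg (2.57 ± 0.18).

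More guidance and adhesion genes were lower in FVF+ than higher. Of 32 axon guidance and chemokine genes, 18 were lower and 5 higher, with a median of -0.85, led by the netrin receptor Unc5c (-4.05 ± 0.35), Epha4 (-3.83 ± 0.37) and Slit2 (-3.66 ± 0.36) on the FVF- side and Sema3c (1.55 ± 0.26) and Ntn4 (1.04 ± 0.15) on the FVF+ side. Of 23 laminins, basement membrane genes and integrins, 13 were lower and 6 higher, with a median of -0.53. The epithelial laminin chain Lama5 measured 9.70 and 9.98 in FVF- against 11.37, 11.58 and 11.42 in FVF+ (1.62 ± 0.20, limma adjusted p = 3.32e-06), and its receptor subunit Itga6 was higher by 1.97 ± 0.21. The linker Nid1, which joins laminin to collagen, was 1 of the 15 largest falls, with 12.70 and 12.78 in FVF- against 9.72, 8.18 and 7.77 in FVF+. Laminin chains went both ways, with Lamc1 higher (1.28 ± 0.15) and Lama4 (-2.26 ± 0.29) and Lama2 (-1.33 ± 0.14) lower.

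Of 28 cell cycle genes, 5 were higher, 5 lower (4 without FVF+ replicate 1) and 18 not called, with a median of 0.14, and the share called was near the 35.9% of all genes. The higher ones were the kinetochore protein Cenpf (1.10 ± 0.32), the mitotic kinesin Kif11 (0.95 ± 0.27), the cyclins Ccne2 (0.68 ± 0.23) and Ccnd1 (0.45 ± 0.15) and the cyclin-dependent kinase inhibitor Cdkn1b (0.62 ± 0.12). Of these, all but Cdkn1b lost their call when one or another single array was left out. The inhibitor Cdkn1c, an imprinted growth restraint, measured 13.45 and 13.32 in FVF- against 11.92, 11.67 and 11.91 in FVF+ (-1.55 ± 0.15, limma adjusted p = 1.17e-07). The FVF+ arrays were all lower for it, and Ccnd3 was lower, at -1.01 ± 0.14 log2 units. The proliferation marker Mki67 read 11.65 and 11.80 against 12.20, 12.38 and 12.43, which did not overlap, but it was not called (0.61 ± 0.24, limma adjusted p = 0.0541). Among 18 genes of the immediate early and heat shock response, 6 were lower and 12 not called, with a median of -0.51. Here too the share called was near that of all genes. Of the 6, Dusp1 (-1.49 ± 0.45), Hspa1a, Klf6, Klf2 and Ier3 each lost their call when one or another single array was left out. Klf4 kept its call. Fos ranged from 7.38 to 9.20 within FVF+ and was not called. The 4 measured X-inactivation and Y-linked genes were not called, with a median of 0.49.

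The sort difference at E12.5 was then set against the mean sort difference of E13.5, E14.5 and E15.5, which shares no array with it. Of all genes, 1711 were called for this contrast (8.87%), 843 more positive at E12.5 (4.37%) and 868 more negative (4.5%). Under cyclic loess normalization the split was 1020 and 503. At least 1 log2 unit separated 336 genes (1.74%), 214 more positive (1.11%) and 122 more negative (0.632%). The count depended on single arrays, with 490 called without FVF- replicate 2, 810 without FVF- replicate 1 and 1049 without FVF+ replicate 3. Of the 6924 genes called at E12.5, 4706 were also called at E13.5 (68.0% of the E12.5 calls and 78.8% of those at E13.5), 4695 of them in the same direction and 11 in the opposite one. At E14.5, 5416 were called (78.2% and 62.9%), 80 of them in the opposite direction, and at E15.5, 4829 (69.7% and 57%), 276 of them in the opposite direction.

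**Figure D5:**
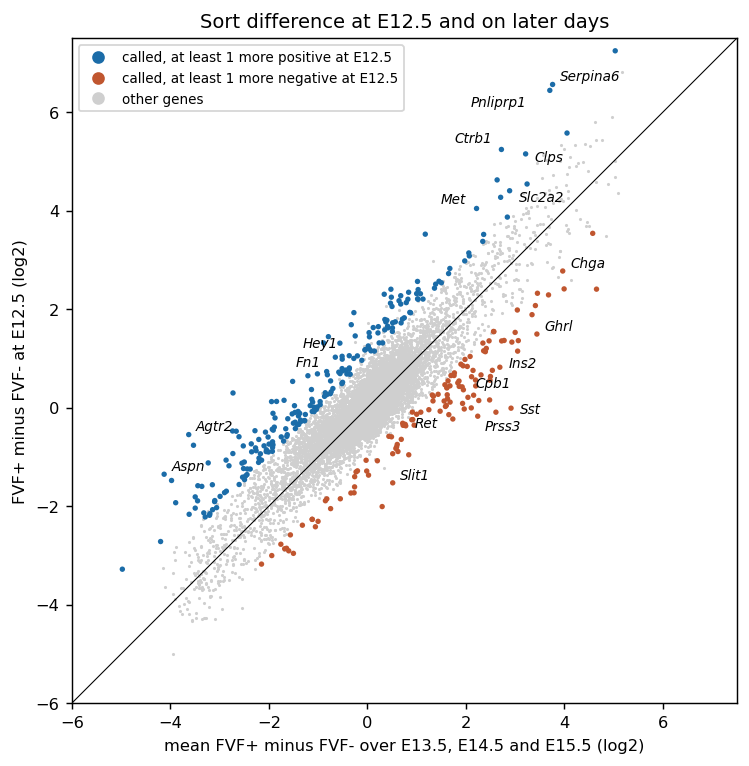
Sort difference of each gene at E12.5 (y axis, log2) against the mean sort difference over E13.5, E14.5 and E15.5 (x axis, log2); the line marks equal values, and genes called with at least 1 log2 unit between them are coloured. Sst lies at -0.01 on the y axis and 2.92 on the x axis, and Pnliprp1 at 6.44 and 3.71.

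Several islet hormones and digestive enzymes separated the sorts less at E12.5 than later. For Sst the difference of -0.01 at E12.5 compared with a mean of 2.92 later (-2.93 ± 0.31 between them, limma adjusted p = 2.33e-05). Its FVF+ means were 8.63, 8.87, 12.16 and 13.47 on the 4 successive days, while its FVF- means stayed between 8.37 and 8.88. Ghrelin, Ghrl (-1.95), insulin, Ins2 (-1.87), cholecystokinin, Cck (-1.60), the convertase Pcsk1 (-1.58) and chromogranin Chga (-1.19) were likewise less sort-biased at E12.5. The Chga call was lost without FVF- replicate 1, FVF- replicate 2 or FVF+ replicate 3, at limma adjusted p-values of 0.13, 0.121 and 0.1. In contrast, Gcg was not called against later days (-1.55, limma adjusted p = 0.19). Of the 9 hormone genes, 5 were more negative at E12.5 and 0 more positive. The digestive enzymes Prss3 (-2.70 ± 0.24), carboxypeptidase Cpb1 (-2.33), elastase Cela3b (-2.12) and ribonuclease Rnase1 (-2.12) and the pancreatic disulfide isomerase Pdia2 (-2.42) belonged to the same class. Cpb1 had FVF+ means of 6.37, 6.95, 10.17 and 12.36 over the 4 days. The Rnase1 call was lost without FVF- replicate 1 (limma adjusted p = 0.0522) or FVF- replicate 2 (0.0629). Of the 27 acinar genes, 13 were more negative at E12.5 and 4 more positive.

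The 4 more positive genes were Pnliprp1, Ctrb1, Clps and Cpa1. Pnliprp1 differed by 6.44 at E12.5 and by a mean of 3.71 later (2.74, limma adjusted p = 0.00451), Ctrb1 by 5.24 and 2.72, and Clps by 5.15 and 3.21. In FVF+ the Pnliprp1 means were 12.82, 13.27, 14.35 and 14.54 over the days, and in FVF- they were 6.38, 7.49, 10.99 and 12.57. The narrowing thus went with higher FVF- signals, as for Ctrb1, whose FVF- means were 8.46, 9.38, 12.51 and 13.88, and Serpina6, with 7.46, 8.25, 10.97 and 11.98. The Cpa1 difference (0.99) lost its call without any 1 of the 5 arrays, with limma adjusted p-values from 0.0683 to 0.254. The other calls were lost without FVF- replicate 2, at limma adjusted p-values of 0.0538 for Pnliprp1, 0.0644 for Ctrb1, 0.0517 for Clps and 0.0827 for Serpina6. Slc2a2 narrowed from the other side, with FVF+ means of 11.69, 11.00, 9.42 and 9.99.

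Another group of genes was closer between the sorts at E12.5 than later, with higher FVF- signals later. The angiotensin receptor Agtr2 differed by -0.55 at E12.5 and by a mean of -3.63 later (3.08 ± 0.43, limma adjusted p = 0.00029), as its FVF- means were 7.38, 9.12, 11.44 and 12.21 and its FVF+ means 6.83 to 7.76. The small matrix proteoglycans Aspn (2.77) and Ogn (2.50), thrombospondin Thbs2 (2.26) and the aggrecanase Adamts5 (3.03) were of the same kind. Adamts5 was not called at E12.5 itself (0.30, limma adjusted p = 0.418) and had a mean difference of -2.73 later. Fibronectin, Fn1, was higher in FVF+ at E12.5 and had a mean difference of -1.01 later (1.70 between them, limma adjusted p = 2.32e-05). Its FVF+ means were 12.49 at E12.5 and 11.37 at E15.5, and its FVF- means 11.80 and 12.96, a description without a test of its own.

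Notch, growth factor and guidance genes also differed between E12.5 and later days. Of 20 Notch genes, 7 were more positive at E12.5 and 0 more negative, among them Nrarp (1.59), Hey1 (1.56) and Notch1 (1.07). The FVF+ means of Hey1 were 10.17, 10.34, 9.07 and 8.26. Met (1.83) and Gdnf (1.03) were more FVF+ biased at E12.5, and the contrast was negative for Ret (-1.55), Igf1 (-1.31) and Slit1 (-2.04). Igf1, lower in FVF+ at E12.5 (-2.31), was thus nearer between the sorts in the later mean, and Slit1 was lower at E12.5 (-1.53) with a later mean of 0.52. Ret stood at 9.87, 10.13, 11.27 and 11.43 in FVF+, against 9.24 to 9.95 in FVF-. Of 22 progenitor factors, 5 were more positive at E12.5 and 1 more negative. The former included Onecut3 (1.38 ± 0.17), Glis3 (1.37 ± 0.14) and Hhex (0.95 ± 0.22), and the latter was Hnf4g (-0.37 ± 0.11). Hhex and Hnf4g each lost their call when one or another single array was left out. Pdx1, Nkx6-1 and Nkx2-2 were not called against the later days, at 0.80, 0.85 and 0.69. Of 19 endocrine lineage factors, 5 were more negative at E12.5 and 0 more positive, among them Isl1 (-1.11). Neurog3 was not called (-0.02, limma adjusted p = 0.98).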

How the data were processed

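RNA from FVF+ and FVF- cells was hybridised to Affymetrix arrays. Per the submitters' processing notes, the authors' deposited log2 values were made by RMA with affy 1.44.0. The genome build behind the probe sets is not given in these sources. Of 23305 probe sets, 20728 carried 1 gene symbol, 1174 several and 1403 none. The brightest probe set by its mean over all arrays stood for each of 19296 genes.

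All 21 arrays were fitted as 8 group means with limma 3.58.1 in R 4.3.3, with empirical Bayes moderation, after the steps had been tested on simulated data. Python 3.11.15 with pandas 2.3.3 and numpy 2.4.6 prepared the tables. The contrasts were FVF+ minus FVF- at E12.5, and that difference minus the mean one of the later days. Called means a Benjamini-Hochberg adjusted p under 0.05 over all genes.

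Genes named are Foxa2, the 15 largest rises and falls whose arrays do not overlap (predicted genes passed over), of each list at most 6 called members in each direction and 3 not called, any member of the hormone, FGF, Hedgehog and growth factor lists, and against later days the 10 largest per direction and up to 3 called per direction of each list. Ptf1a, Sox9, Cpa1, Bhlha15, Rbpjl, Alb, Afp, Ttr, Gata6 and Serpina1d were named after their values were seen. The comparison, lists and motifs were chosen with earlier results of these data known. Alternatives covered scaling, array weights, the dim-gene filter, replicate blocks and leaving out each array. List members without a usable probe set were not analysed here.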

Additional observations from a re-analysis of the deposited data

Results flagged for a closer look

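The sort difference of 41 genes named for E12.5 differed from their mean sort difference on the later days by at least 1 log2 unit, tested by the contrast between E12.5 and later days with limma. Values are the E12.5 difference minus the later one. A call on this contrast was kept without any single E12.5 array for 20 of them and lost without 1 or more arrays for the other 21.

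Among those kept, the difference was more positive at E12.5 for the neutrophil gene Ngp (2.77), the growth factor receptor Met (1.83), the haem synthesis enzyme Alas2 (1.76), fibronectin Fn1 (1.70), the Notch targets Nrarp (1.59) and Hey1 (1.56), vitronectin Vtn (1.52), the glucose transporter Slc2a2 (1.52), neuropilin Nrp1 (1.50), apolipoprotein Apoe (1.17), the receptor Notch1 (1.07) and the ligand Gdnf (1.03). It was more negative for the hormones Sst (-2.93), Ghrl (-1.95), Ins2 (-1.87) and Cck (-1.60), the retinaldehyde dehydrogenase Aldh1a1 (-1.76), the convertase Pcsk1 (-1.58), the receptor Ret (-1.55) and the growth factor Igf1 (-1.31).

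Among those lost without 1 or more arrays, the difference was more positive at E12.5 for the exocrine and liver-type genes Serpina6 (2.80), Pnliprp1 (2.74), Ctrb1 (2.52), Serpina1c (2.21) and Clps (1.94). The same held for the mast cell and neutrophil genes Cpa3 (1.70), S100a8 (1.26) and S100a9 (1.15), the mesothelial genes Gpm6a (1.08) and Lrrn4 (1.02), the Wnt inhibitor Sfrp2 (1.46), the guidance cue Sema3c (1.04) and the receptor Erbb3 (1.01). It was more negative for the acinar genes Ctrc (-1.49) and Bhlha15 (-1.39), the receptor Fgfr2 (-1.33), the endocrine genes Chga (-1.19), Isl1 (-1.11), Scg2 (-1.09) and Ppy (-1.06), and Lef1 (-1.02).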

How the results depend on the processing

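The 6924 genes called at E12.5 became 2238 when at least 1 log2 unit was required as well, ranged from 4701 to 6503 when each array was left out in turn, and stayed between 5419 and 9355 under the other alternatives. The 1711 genes called against later days became 336 with at least 1 log2 unit, 1118 with dim genes left out, 3801 with array weights, 2912 without E13.5, and from 490 (without FVF- replicate 2) to 1431 (without FVF+ replicate 1) when each E12.5 array was left out. The balance of that comparison, 843 more positive and 868 more negative, became 1020 and 503 with cyclic loess, 693 and 425 with dim genes left out, 506 and 264 with the replicate block, and 311 and 179 without FVF- replicate 2. No named gene that was called, as reported or under the alternative, reversed its direction. Sign changes of genes called in neither, such as those with differences near 0, were not counted. Of 353 genes named for E12.5, between 0 and 35 lost their call under an alternative, and of 109 against later days, between 0 and 59. Deviations of same-numbered E12.5 arrays correlated at -0.01 and 0.09. The deviations of 2 FVF- arrays mirror each other, so these values cannot decide whether the replicate numbers pair the sorts. Same-numbered arrays correlated at -0.03 and -0.03 at E13.5, at -0.37, -0.22 and 0.49 at E14.5, and at 0.20, 0.14 and 0.08 at E15.5. With the replicate block, 5484 genes were called at E12.5 and 770 against later days. FVF+ replicate 3 at E12.5 has no FVF- array of its number, so it adds nothing to the E12.5 difference in that fit. The cause of these shifts was not tested. With 2 FVF- arrays, each leave-one-out there leaves 1 array assumed to vary like the other groups.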
